A study of Rattus norvegicus with 15 samples.

Results

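The genes described here serve protein folding in the endoplasmic reticulum (ER), the removal of misfolded proteins from it (ER-associated degradation, ERAD) and the unfolded protein response that adjusts both. They form a list of 38 rat genes named for their known functions, with no measured value in the rule though earlier results of these data were known, and matched by symbol to the identifiers of a table of read counts. Of the 38, 36 had a row among the 16832 identifiers, and Derl2 and Edem1 were not analysed here. Pdia6 was listed at 0 in all 15 libraries. The other 35 passed the filter on low counts, each with at least 16 counts in every library. The RNA came from undifferentiated Odora cells, an established rat line that the labels call olfactory neurons, exposed to the salt zinc gluconate. There were 5 groups of 3 libraries: 200 µM for 6 h, 100 µM for 6, 12 or 24 h, and controls, for which the labels give neither an agent nor a time. All groups are of this 1 line. No label says whether the libraries of a group came from separate cultures, so the p-values cover the spread between libraries alone, and that spread may be technical.

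Proteins that enter the ER are folded by Hsp70- and Hsp90-type chaperones, by the lectin chaperones calnexin and calreticulin and by disulphide isomerases, and those that fail are moved to the cytosol for degradation by the proteasome. When unfolded protein accumulates, the membrane sensors IRE1 (gene Ern1), PERK (Eif2ak3) and ATF6 raise the output of chaperone and ERAD genes. IRE1 does so by splicing the mRNA of Xbp1, PERK by phosphorylating a translation initiation factor, and ATF6 after it is cut by proteases in the Golgi. Counts per gene show neither the splicing of Xbp1 nor the state of the sensor proteins. In mouse olfactory sensory neurons, odorant receptors are themselves ER clients, and PERK takes part in the feedback by which a cell settles on a receptor gene.

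Library totals were 10.3 to 35.2 M counts. Levels are given as CPM, counts rescaled to a common library total, after the totals were scaled by TMM (trimmed mean of M values), a method that centres the bulk of the genes. They are not compared between genes, since they are not per length. The 24 h group of 100 µM and the 200 µM group were alike library by library, with a chi-square per degree of freedom of 1.30 to 1.35 between matched libraries, against 2.89 to 15.1 for the other pairs of these 6. Set directly against each other in edgeR, these labels gave 0 of 10575 genes and 0 of the 35 ER genes past the threshold, with 69 and 0 at an unadjusted p under 0.05, and DESeq2 also gave 0. The largest log2 difference of an ER gene between them was 0.39 in size. Values under both labels are therefore set side by side, and neither is support for the other. Transcripts of heart muscle, summed over 6 genes, were at 0.156 to 0.608 CPM in 11 of the 12 zinc libraries and at 49.4 CPM in replicate 1 of 6 h at 100 µM, against 106, 26.7 and 107 CPM in the controls. Of 9 marker genes of mature olfactory neurons 2, Adcy3 and Cnga4, were over 1 CPM in every library, Omp was at 0.703 CPM or below, and Cnga2 and Rtp1 were listed at 0. Of 8 genes of immature olfactory neurons 3, Ncam1, Tubb3 and Gng8, were over 1 CPM in every library, and Gap43 and Stmn2 were listed at 0. The list sums were 116 to 124 CPM at 200 µM and 112 to 115 CPM in the controls, mostly Ncam1. Of the 4 tested, 1 was higher and 1 lower at 200 µM. Gng8 was at 3.91, 3.75 and 3.84 CPM there, against 9.27, 7.22 and 6.93 CPM in the controls. Tubb3 was at 22.6, 24.9 and 20.8 CPM, against 16.4, 18.3 and 19.2 CPM. A listed 0 may not show absence, since Pdia6, Rpn1 and Ufd1, used by all cells, are also listed at 0. Of 8 fibroblast genes 5 were over 1 CPM in every library, with sums of 6506 to 8208 CPM at 200 µM and 7143 to 9542 CPM in the controls. These sums are mostly Col1a1, which did not pass, while of the 7 tested 3 were lower at 200 µM, Lum (-3.05 ± 0.69), Dcn (-2.18 ± 0.65) and Col3a1 (-1.13 ± 0.27), and 1 was higher, Thy1 (0.53 ± 0.09). Apart from fits with a heart term, which marks the 4 libraries with heart transcripts and is told apart from the groups through replicate 1 of 6 h alone, the part of these differences in the results was not tested. In bulk RNA, fewer cells of a kind and less RNA per cell cannot be told apart.

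Relative to the bulk of the genes, most chaperone, disulphide isomerase and translocon genes were higher after 6 h at 200 µM than in the controls, led by the chaperone gene Hspa5, while the sensor and ERAD genes were divided; with library totals as the scaling the 35 genes split into 15 higher and 12 lower. Of the 35 genes, 25 were higher, 3 were lower and 7 did not pass (edgeR, adjusted p under 0.05 over all genes), with a median log2 ratio of 0.49. Over all 10575 genes tested, 60.5% passed, 29.4% as higher and 31.1% as lower, with a median of -0.02. Under the 24 h label the counts were 25 higher and 5 lower with a median of 0.51, where 61.0% of all genes passed, 29.7% as higher and 31.3% as lower. Libraries of the groups did not overlap for 28 of the 35 genes in each of these comparisons, against 63.7% of all genes at 200 µM and 64.2% under the 24 h label. At 100 µM the earlier times stood apart from this: 1 gene was higher and 6 were lower after 6 h, where 17.2% of all genes passed, 9.10% as higher and 8.10% as lower. After 12 h 2 were higher and 4 lower, where 6.33% of all genes passed, 3.36% as higher and 2.97% as lower. In a test over all 5 groups 32 of the 35 genes passed, as did 66.4% of all genes.

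With library totals in place of TMM the median of all genes moved to -0.40 at 200 µM and to -0.40 under the 24 h label, and the split of the 35 genes under the 24 h label to 17 higher and 12 lower. All genes then split into 1264 higher and 6625 lower at 200 µM, in place of 3108 and 3294, and into 1296 higher and 6694 lower under the 24 h label, in place of 3143 and 3306. The distance of the 35 genes' median from that of all genes stayed at 0.51 at 200 µM and 0.53 under the 24 h label. A share of all counts also takes library totals as the scaling. The 36 genes together took 1.94%, 2.03% and 1.88% of all counts at 200 µM, against 1.14%, 1.09% and 1.12% in the controls. At 100 µM the share was 1.13%, 1.12% and 1.12% after 6 h, 1.12% in each library after 12 h, and 1.90%, 2.06% and 1.94% under the 24 h label. The 200 µM and 24 h libraries were all above the other 9. Hspa5 alone took 0.52%, 0.546% and 0.505% at 200 µM, against 0.0792%, 0.0682% and 0.0702% in the controls, which is the larger portion of the difference. Without Hspa5 the share was 1.42%, 1.48% and 1.38% at 200 µM, against 1.06%, 1.02% and 1.05% in the controls.

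**Figure D1:**
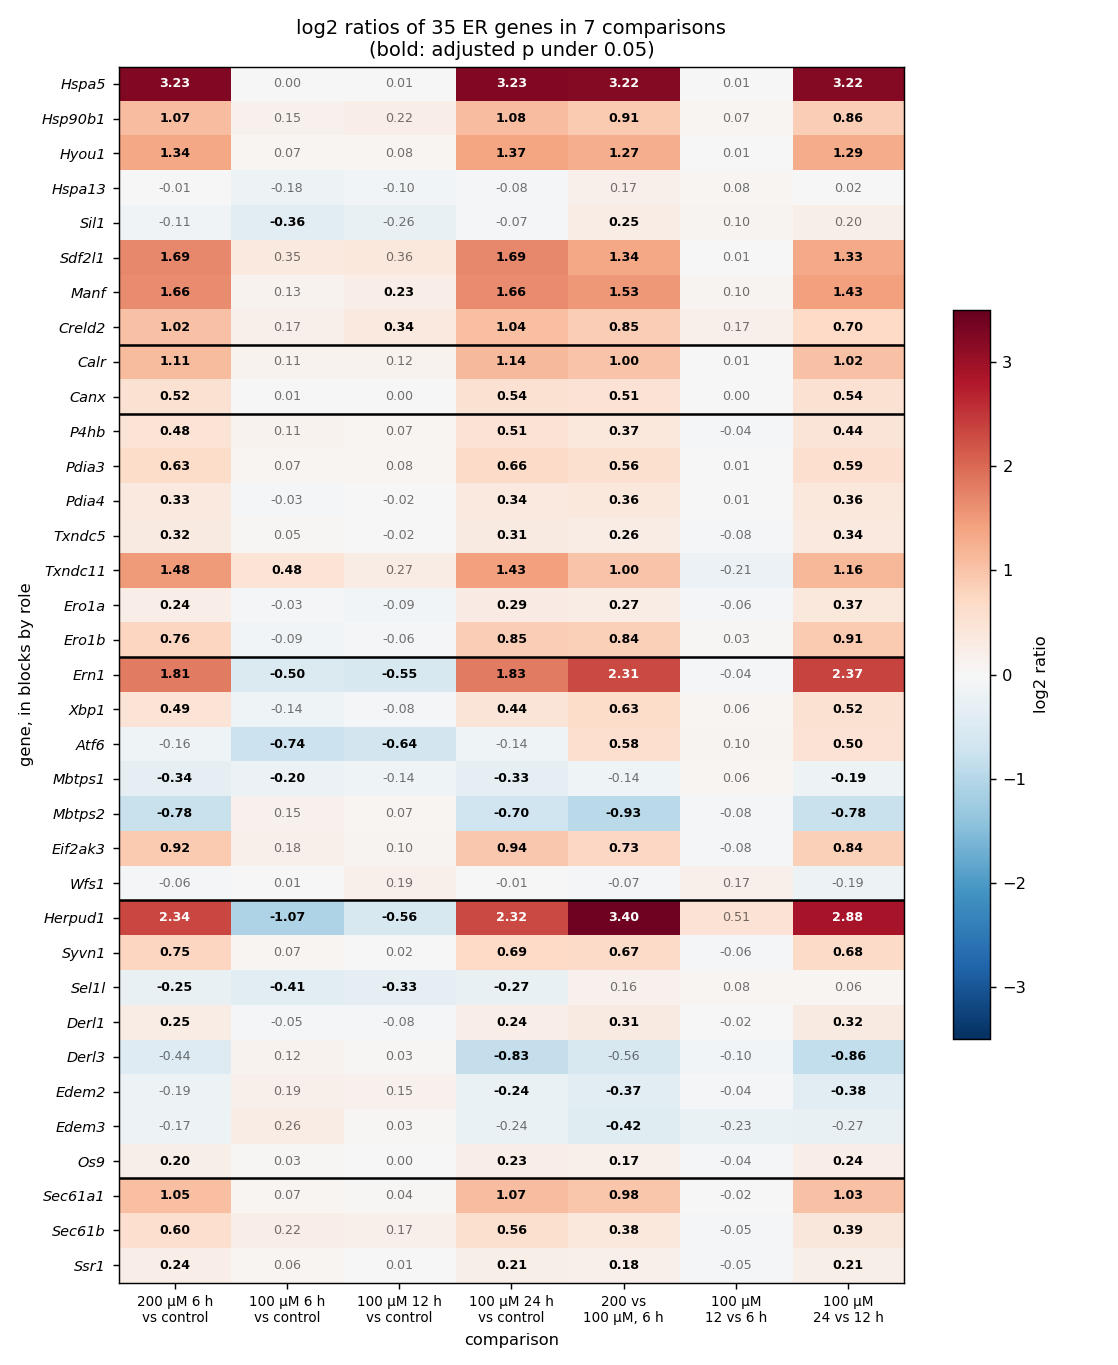
log2 ratios (colour and number) of the 35 tested ER genes in the 7 comparisons, in blocks by role from chaperones at the top to the translocon at the bottom, with bold numbers for an adjusted p under 0.05. The columns of 200 µM and of 24 h are mostly red and close to each other, led by Hspa5 and Herpud1, while the columns of 6 h and 12 h against control are pale with a few blue cells, and with library totals as the scaling Pdia4, Txndc5, Ero1a, Derl1, Os9 and Ssr1 turned below 0 at 200 µM.

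The promoters of these genes were read for the elements through which the unfolded protein response is known to act. ERSE, the ER stress response element bound by ATF6 together with NF-Y, was searched as CCAAT, any 9 bases and CCACG, ERSE-II as ATTGG, any 1 base and CCACG, the core of the XBP1 site as ACGTG, and the core of the composite element of ATF4 and CHOP as TGATGNAA, on both strands. Both ERSE forms end in CCACG, so a core can share bases with them, as it did at Hyou1 and Herpud1. The windows, from RefSeq on GRCr8, run from 250 bases before to 50 after the gene's start, and 27 of the 36 genes have one. ERSE stood in 8 of the 27 (29.6%), against 21 of all 27457 genes with a window (0.0765%). ERSE-II stood in 2 of the 27 (7.41%), against 0.0619% of all these genes. The short core ACGTG stood in 10 of the 27 (37%), against 20.9% of all these genes, and TGATGNAA in 1 of the 27, Herpud1, against 4.16%. The ER genes and the elements were both chosen from what is known of this response. These shares, and the ratios set beside the elements below, are therefore description and not a test. A match is a description of the letters and not of binding.

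Shown are the 250 bases before the start for the 5 genes with an ERSE whose ratios at 200 µM were largest in size, with the ERSE in capitals, and for Herpud1, picked after its values were seen, with its ERSE-II in capitals. In Hspa5 (chr3:38452766-38453015, plus strand) the ERSE begins 43 bases before the start. Calr (chr19:40213117-40213366, plus strand) has its element at 232 bases before the start, and Hsp90b1 (chr7:23012294-23012543, minus strand) has a pair, at 176 and 72. The elements of Creld2 (chr7:121789134-121789383, plus strand), Ero1b (chr17:92941432-92941681, plus strand) and Herpud1 (chr19:10614708-10614957, minus strand) begin at 145, 224 and 124 bases before the start. In Calr, Creld2, Ero1b and the nearer element of Hsp90b1 the ERSE lies on the opposite strand, so it is printed as its reverse complement.
Hspa5: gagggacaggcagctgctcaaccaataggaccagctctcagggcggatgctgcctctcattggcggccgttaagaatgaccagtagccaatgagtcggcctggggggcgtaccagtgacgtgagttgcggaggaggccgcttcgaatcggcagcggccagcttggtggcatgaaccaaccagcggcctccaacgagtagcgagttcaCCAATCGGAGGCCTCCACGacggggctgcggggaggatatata
Calr: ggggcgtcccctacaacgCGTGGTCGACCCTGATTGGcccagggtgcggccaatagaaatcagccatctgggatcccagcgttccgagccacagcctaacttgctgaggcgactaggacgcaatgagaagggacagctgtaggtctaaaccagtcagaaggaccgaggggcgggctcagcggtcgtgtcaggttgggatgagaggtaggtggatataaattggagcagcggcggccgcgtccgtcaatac
Hsp90b1: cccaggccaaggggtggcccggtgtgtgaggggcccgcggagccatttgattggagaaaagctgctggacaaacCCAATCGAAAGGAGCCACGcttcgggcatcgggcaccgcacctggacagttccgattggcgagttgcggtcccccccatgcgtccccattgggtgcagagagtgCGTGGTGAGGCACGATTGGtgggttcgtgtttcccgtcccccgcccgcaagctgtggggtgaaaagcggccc
Creld2: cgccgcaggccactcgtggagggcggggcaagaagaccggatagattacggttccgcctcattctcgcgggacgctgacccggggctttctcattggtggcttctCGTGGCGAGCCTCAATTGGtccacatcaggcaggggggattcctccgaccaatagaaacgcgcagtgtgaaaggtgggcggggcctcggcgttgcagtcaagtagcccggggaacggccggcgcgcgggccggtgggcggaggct
Ero1b: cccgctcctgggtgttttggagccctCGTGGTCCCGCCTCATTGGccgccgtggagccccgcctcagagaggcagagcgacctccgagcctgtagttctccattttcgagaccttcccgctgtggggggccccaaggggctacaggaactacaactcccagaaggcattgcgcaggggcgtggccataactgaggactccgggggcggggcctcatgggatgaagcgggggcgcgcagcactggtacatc
Herpud1: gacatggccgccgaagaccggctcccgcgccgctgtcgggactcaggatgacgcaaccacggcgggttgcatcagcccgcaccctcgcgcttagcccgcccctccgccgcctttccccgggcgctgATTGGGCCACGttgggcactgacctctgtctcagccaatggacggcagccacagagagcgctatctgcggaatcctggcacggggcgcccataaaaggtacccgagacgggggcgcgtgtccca

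Of the 10 genes with an ERSE or an ERSE-II, 9 were higher at 200 µM and 1, Derl3, did not pass, with a median log2 ratio of 1.04. Besides those shown they were Canx, Xbp1, Derl3 and Hyou1, which has 2 ERSE-II. Of the 17 genes whose window holds neither, 9 were higher and 3 lower, with a median of 0.24. With library totals 6 of the 10 were higher and 1, Derl3, lower, with a median of 0.67, and 5 of the 17 were higher and 8 lower, with a median of -0.13. These 9 include Sdf2l1 and Txndc11, so a high ratio also occurred without either element in this window.

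**Figure D2:**
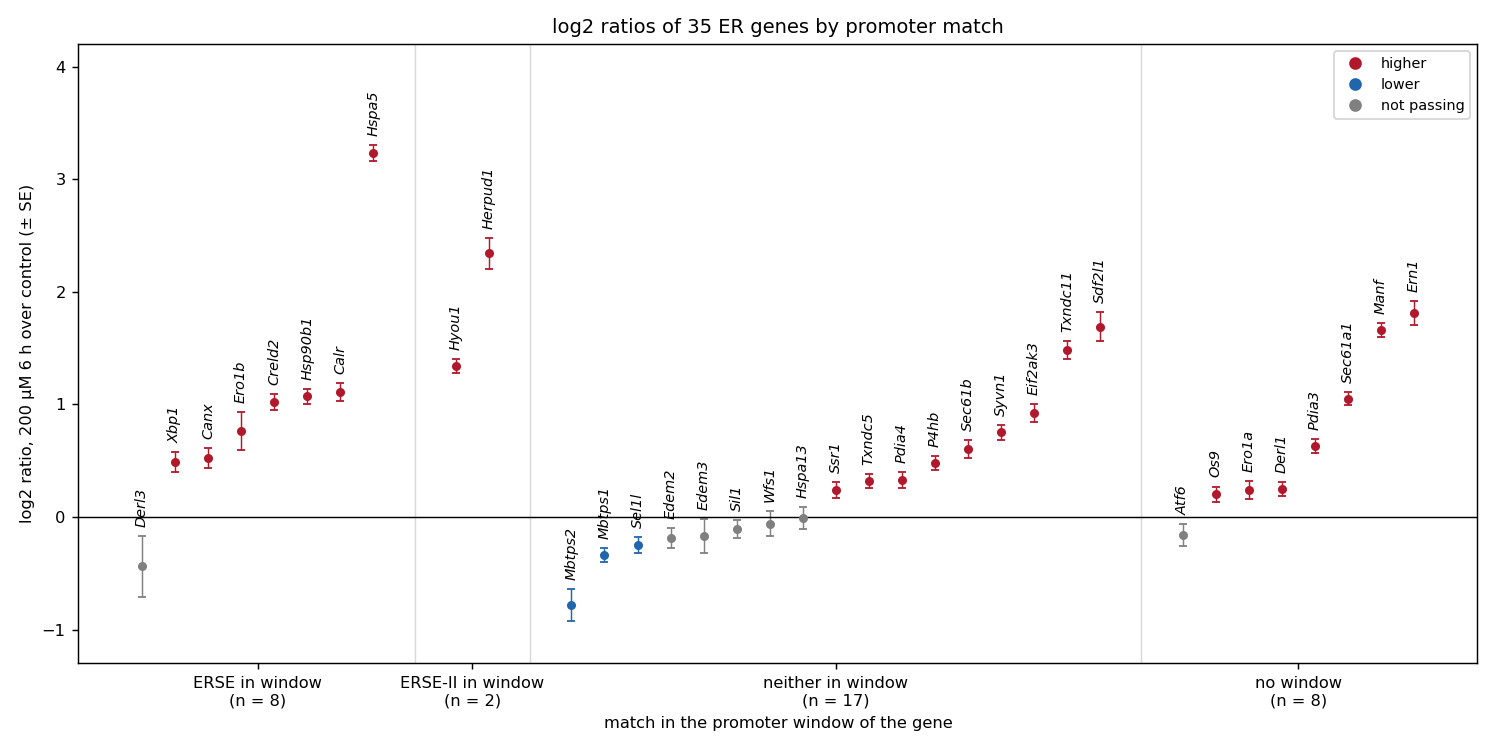
log2 ratio of 200 µM for 6 h over control (points, bars ± SE) for each of the 35 tested genes, in order of ratio within 4 classes of promoter window, coloured by call. The 8 genes with an ERSE run from Derl3 (-0.44) to Hspa5 (3.23), the 2 with ERSE-II are Hyou1 (1.34) and Herpud1 (2.34), and the 17 with neither run from Mbtps2 (-0.78) to Sdf2l1 (1.69); with library totals 6 of the 10 with an element were higher and 1 lower, and 5 of the 17 were higher and 8 lower.

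Among the chaperones of the Hsp70 and Hsp90 systems, 6 of 8 were higher at 200 µM, with a median log2 ratio of 1.20, and none was lower; with library totals 6 were higher and 2 lower. Hspa5 encodes BiP, the ER Hsp70 that also holds the sensors inactive. It was at 5933, 6378 and 5867 CPM at 200 µM, against 706, 605 and 630 CPM in the controls. At 100 µM it was at 668, 635 and 646 CPM after 6 h, 653, 637 and 666 CPM after 12 h and 5894, 6470 and 5909 CPM under the 24 h label. Every library of the 200 µM and 24 h labels lay far above the other 9, which overlapped among themselves. The level at 200 µM was 9.36-fold that of control (log2 ratio 3.23 ± 0.07, edgeR adjusted p = 5.88e-17). After 6 h and 12 h at 100 µM the log2 ratios were 0.00 ± 0.07 and 0.01 ± 0.07 and did not pass.

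Hsp90b1, the ER Hsp90 also called GRP94, was at 1811, 1575 and 1687 CPM at 200 µM, against 811, 745 and 867 CPM in the controls. The 100 µM libraries were at 936, 868 and 887 CPM after 6 h, 966, 927 and 935 CPM after 12 h and 1722, 1624 and 1791 CPM under the 24 h label. The 6 and 12 h libraries were all above the controls by a little, and those of 200 µM and 24 h were well above all others. The ratio passed at 200 µM (log2 ratio 1.07 ± 0.07, edgeR adjusted p = 2.18e-10) and not after 12 h (0.22 ± 0.07), where it passed in DESeq2 (0.23), with the replicate block (0.23) and without control replicate 3 (0.28). Hyou1, a large Hsp70-like protein that exchanges the nucleotide of BiP, was at 413, 433 and 386 CPM at 200 µM, against 169, 159 and 160 CPM in the controls. After 6 h at 100 µM it was at 169, 167 and 175 CPM, after 12 h at 171, 169 and 176 CPM and under the 24 h label at 394, 432 and 435 CPM. Its 200 µM and 24 h libraries did not overlap any other (log2 ratio 1.34 ± 0.06, edgeR adjusted p = 1.24e-12 at 200 µM).

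The smaller luminal factors were also higher at 200 µM. Sdf2l1, which works with BiP and its J-domain partners against aggregation, was at 80.8, 101 and 70.8 CPM at 200 µM, against 28.3, 22.8 and 27.5 CPM in the controls. Sdf2l1 at 100 µM was at 34.1, 30.7 and 34.6 CPM after 6 h, 36.9, 32.8 and 30.9 CPM after 12 h and 73.5, 98.4 and 80.1 CPM under the 24 h label. The libraries of each zinc group were above all controls, and the test passed at 200 µM (log2 ratio 1.69 ± 0.13, edgeR adjusted p = 6.51e-09) but not after 6 h (0.35 ± 0.13) or 12 h (0.36 ± 0.13). It passed as higher in fits of the 6 libraries compared (0.34 after 6 h and 0.35 after 12 h) and, after 6 h, without the 200 µM label or with matched libraries summed (0.35 in each). Manf, a secreted BiP-binding factor that protects neurons, was at 157, 175 and 163 CPM at 200 µM, against 52.8, 50.9 and 53.3 CPM in the controls. For 100 µM the levels were 59.7, 54.3 and 57.4 CPM after 6 h, 63, 62.3 and 58.9 CPM after 12 h and 168, 174 and 155 CPM under the 24 h label. It was higher at 200 µM (log2 ratio 1.66 ± 0.06, edgeR adjusted p = 1.34e-13), and each 6 and 12 h library was above each control. Creld2, a factor with disulphide isomerase activity, was at 85.5, 97.7 and 82.4 CPM at 200 µM, against 42.7, 44.3 and 44.3 CPM in the controls. At 100 µM it was at 50.5, 49.4 and 47.5 CPM after 6 h, 54.6, 56.7 and 54.7 CPM after 12 h and 81.6, 98.6 and 90 CPM under the 24 h label. Its groups did not overlap the controls at any time, and the ratio at 200 µM was 1.02 ± 0.07, edgeR adjusted p = 1.23e-09.

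Hspa13, a microsomal Hsp70-like protein, and Sil1, a nucleotide exchange factor of BiP, did not follow. At 200 µM Hspa13 had a log2 ratio of -0.01 ± 0.10 and Sil1 of -0.11 ± 0.08, and neither passed. With library totals both passed as lower, at -0.39 and -0.48. Group means ran from 40.7 to 46.3 CPM for Hspa13 and from 17.9 to 23.0 CPM for Sil1.

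Both lectin chaperones, which hold glycoproteins during folding, were higher at 200 µM. Calr, calreticulin, was at 5743, 6716 and 5758 CPM at 200 µM, against 2894, 2745 and 2812 CPM in the controls. The 100 µM libraries were at 2949, 3028 and 3120 CPM after 6 h, 3083, 3056 and 3023 CPM after 12 h and 5795, 6989 and 5792 CPM under the 24 h label. The gap between the high and the low libraries was wide (log2 ratio 1.11 ± 0.08, edgeR adjusted p = 6.72e-10 at 200 µM). Canx, the membrane-bound calnexin, was at 1026, 836 and 960 CPM at 200 µM, against 662, 603 and 702 CPM in the controls. After 6 h at 100 µM it was at 699, 623 and 654 CPM, after 12 h at 672, 652 and 649 CPM and under the 24 h label at 998, 833 and 1034 CPM. The 200 µM and 24 h libraries lay above the rest, which overlapped among themselves. The distance was smaller than for Calr (log2 ratio 0.52 ± 0.09, edgeR adjusted p = 4.33e-05 at 200 µM), and with library totals it was 0.15 and did not pass.

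**Figure D3:**
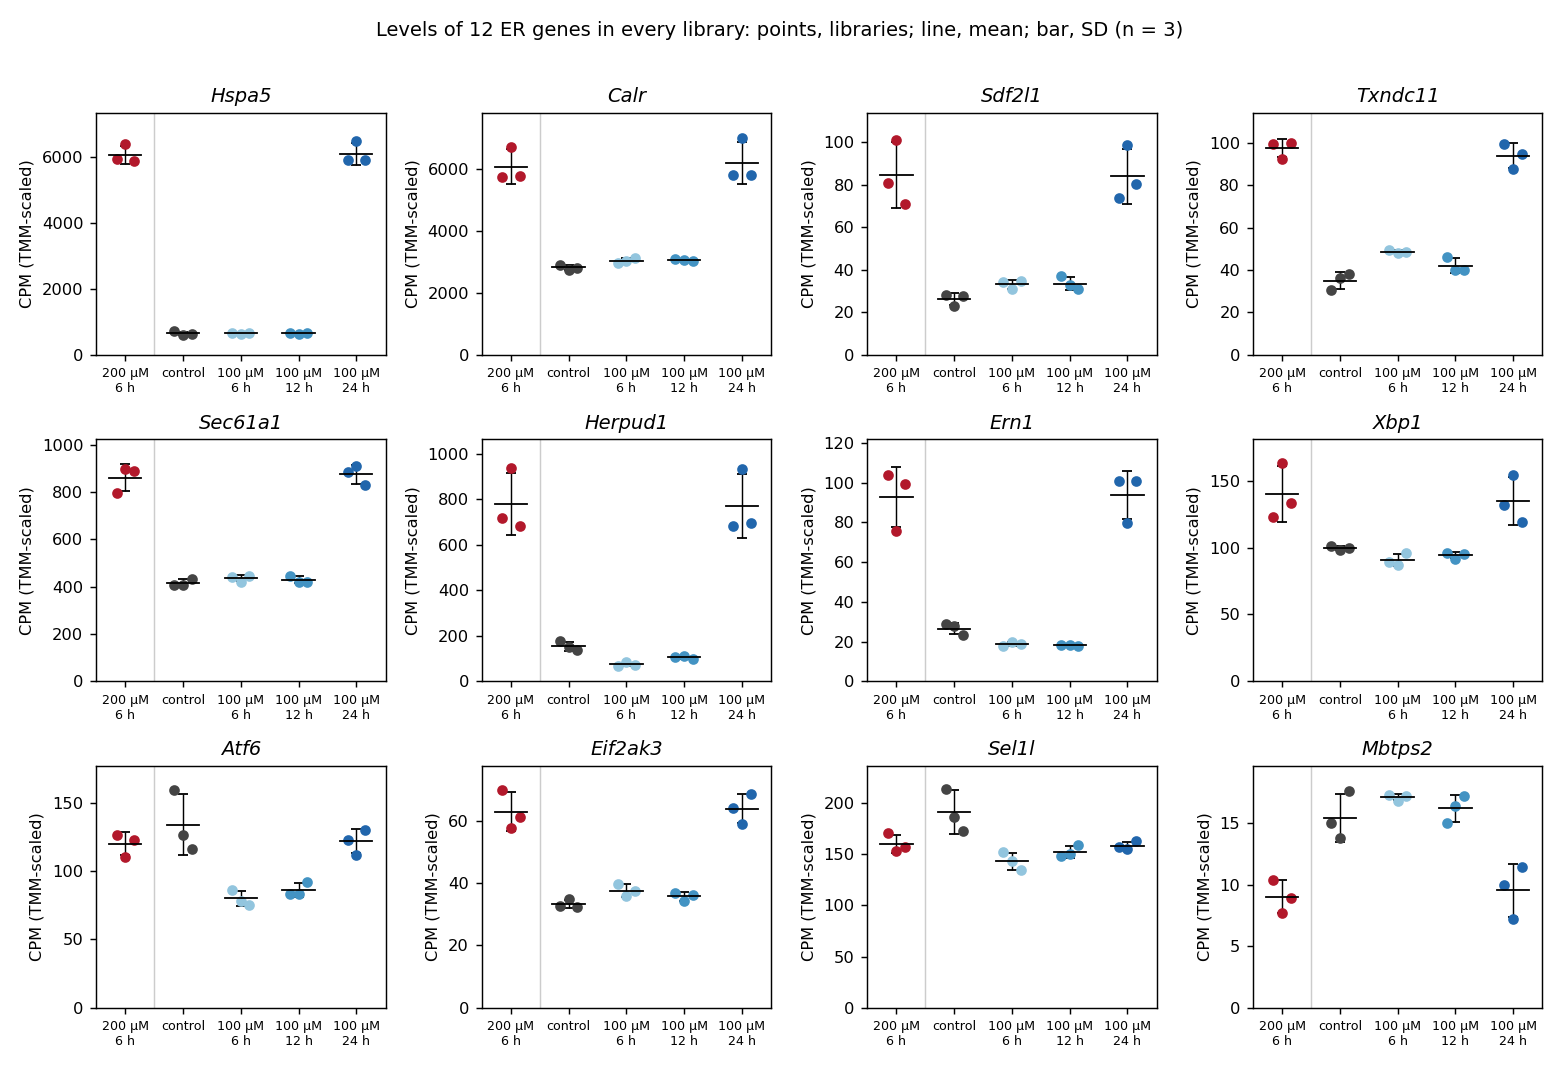
Level in CPM (TMM-scaled totals) of 12 ER genes in every library, with the 200 µM group left of the vertical line and control and the 100 µM times to its right (points, libraries; horizontal line, mean; bar, SD, n = 3). For Hspa5, Calr, Sdf2l1, Txndc11, Sec61a1 and Eif2ak3 the points at 200 µM and 24 h are the high ones, Herpud1 and Ern1 dip below control at 6 and 12 h, Atf6 dips there alone, and Mbtps2 is lowest at 200 µM and 24 h.

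All 7 tested disulphide isomerases and oxidases were higher at 200 µM, with a median log2 ratio of 0.48, though with library totals 2 were higher and Pdia4, Txndc5 and Ero1a turned to -0.04, -0.06 and -0.13. Txndc11, an ER thioredoxin-like protein, moved most. It was at 99.4, 92.5 and 100 CPM at 200 µM, against 30.4, 36.3 and 38.1 CPM in the controls. Txndc11 at 100 µM was at 49.2, 47.8 and 48.6 CPM after 6 h, 46.2, 40.1 and 39.8 CPM after 12 h and 99.4, 87.8 and 94.5 CPM under the 24 h label. Every zinc library was above every control. In the main fit Txndc11 was the only ER gene of the list that was higher both at 200 µM (log2 ratio 1.48 ± 0.08, edgeR adjusted p = 2.28e-11) and after 6 h at 100 µM (0.48 ± 0.08, edgeR adjusted p = 5.66e-04).

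P4hb, protein disulphide isomerase itself, was at 1381, 1551 and 1435 CPM at 200 µM, against 1024, 1036 and 1069 CPM in the controls. For 100 µM the levels were 1149, 1102 and 1117 CPM after 6 h, 1120, 1084 and 1070 CPM after 12 h and 1457, 1586 and 1400 CPM under the 24 h label. The 6 and 12 h libraries lay just above the controls, and those of 200 µM and 24 h above all others (log2 ratio 0.48 ± 0.06, edgeR adjusted p = 2.32e-06 at 200 µM; 0.11 with library totals, which did not pass). Pdia3, the isomerase that works with calnexin and calreticulin, was at 992, 952 and 966 CPM at 200 µM, against 616, 607 and 653 CPM in the controls. At 100 µM it was at 673, 622 and 672 CPM after 6 h, 688, 643 and 649 CPM after 12 h and 992, 1002 and 978 CPM under the 24 h label. Its low libraries overlapped among themselves, and the 200 µM ones stood clear of them (log2 ratio 0.63 ± 0.06, edgeR adjusted p = 1.94e-08). Ero1b, which passes electrons from the isomerases to oxygen, was at 7.48, 5.23 and 5.53 CPM at 200 µM, against 4.26, 3.17 and 3.36 CPM in the controls. The 100 µM libraries were at 3.5, 2.96 and 3.53 CPM after 6 h, 3.07, 3.54 and 3.72 CPM after 12 h and 5.86, 5.86 and 7.72 CPM under the 24 h label. With these low counts the error was larger (log2 ratio 0.76 ± 0.17, edgeR adjusted p = 8.05e-04), and the highest control came close to the lowest 200 µM library. Its relative Ero1a had a ratio of 0.24 ± 0.08, edgeR adjusted p = 0.00943, and Pdia4 and Txndc5 had ratios of 0.33 ± 0.07 and 0.32 ± 0.06. With the heart term Txndc5 passed neither at 200 µM (0.26) nor under the 24 h label (0.26).

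The sensors split. Ern1 and Eif2ak3, which encode the sensor proteins IRE1 and PERK, were higher at 200 µM, Xbp1, the target of IRE1, was higher by less, and Atf6 did not pass. Ern1 was at 104, 75.8 and 99.2 CPM at 200 µM, against 28.6, 27.6 and 23.2 CPM in the controls. After 6 h at 100 µM it was at 18, 19.8 and 18.6 CPM, after 12 h at 18.2, 18.2 and 18 CPM and under the 24 h label at 101, 79.9 and 101 CPM. All 6 and 12 h libraries were thus below all controls, and all 200 µM and 24 h libraries above them. The ratio was 1.81 ± 0.11, edgeR adjusted p = 1.95e-10 at 200 µM, -0.50 ± 0.12, edgeR adjusted p = 0.0076 after 6 h and -0.55 ± 0.12, edgeR adjusted p = 0.0131 after 12 h at 100 µM. The lower level after 6 h no longer passed without replicate 1 of that group (-0.47) or with the heart term (-0.56), and that after 12 h without control replicate 1 (-0.49) or with that term (-0.63).

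Eif2ak3 was at 69.7, 57.6 and 61.3 CPM at 200 µM, against 32.7, 34.8 and 32.3 CPM in the controls. Eif2ak3 at 100 µM was at 39.7, 35.7 and 37.4 CPM after 6 h, 36.9, 34.2 and 36.2 CPM after 12 h and 64.1, 58.9 and 68.5 CPM under the 24 h label. The 6 and 12 h libraries lay at or just above the controls and the others well above (log2 ratio 0.92 ± 0.08, edgeR adjusted p = 9.44e-09 at 200 µM). Xbp1 was at 123, 163 and 133 CPM at 200 µM, against 101, 98.2 and 99.4 CPM in the controls. For 100 µM the levels were 89.3, 86.6 and 95.6 CPM after 6 h, 95.9, 91.6 and 94.9 CPM after 12 h and 132, 154 and 119 CPM under the 24 h label. Its early libraries were all just below the controls without passing, and the 200 µM ones above them (log2 ratio 0.49 ± 0.09, edgeR adjusted p = 1.84e-04). The ratio at 200 µM was 0.11 with library totals, which did not pass. Under the 24 h label Xbp1 passed neither with library totals (0.07) nor with the heart term (0.41).

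Atf6 was at 126, 110 and 123 CPM at 200 µM, against 159, 126 and 116 CPM in the controls. At 100 µM it was at 86.2, 78.4 and 75.3 CPM after 6 h, 83.2, 83 and 92.1 CPM after 12 h and 123, 112 and 130 CPM under the 24 h label. The 200 µM libraries overlapped the controls, while the 6 and 12 h libraries were below both. The ratio was -0.74 ± 0.10, edgeR adjusted p = 4.22e-05 after 6 h and -0.64 ± 0.10, edgeR adjusted p = 7.77e-04 after 12 h, where it no longer passed with the heart term (-0.47), and -0.16 ± 0.10 at 200 µM, where it passed as lower without control replicate 3 (-0.25) and with library totals (-0.54).

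The protease genes that release ATF6 were lower at 200 µM. Mbtps2, site-2 protease, was at 10.4, 7.73 and 8.9 CPM at 200 µM, against 15, 13.8 and 17.6 CPM in the controls. The 100 µM libraries were at 17.3, 16.8 and 17.2 CPM after 6 h, 15, 16.4 and 17.2 CPM after 12 h and 10, 7.18 and 11.4 CPM under the 24 h label. The low libraries were those of 200 µM and 24 h, with no overlap (log2 ratio -0.78 ± 0.14, edgeR adjusted p = 1.17e-04 at 200 µM). Mbtps1, site-1 protease, had a ratio of -0.34 ± 0.06, edgeR adjusted p = 7.64e-05 at 200 µM and of -0.20 ± 0.06, edgeR adjusted p = 0.0231 after 6 h at 100 µM. The value at 6 h did not pass without control replicate 1 (-0.20), control replicate 2 (-0.19) or replicate 1 of its own group (-0.16), nor in a fit of those 6 libraries alone (-0.21). Wfs1, wolframin, an ER membrane protein that restrains ATF6, had ratios of -0.06 to 0.19 in the 4 comparisons with control and passed in none, though with library totals it passed as lower at 200 µM (-0.44).

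Of the 8 tested ERAD genes 4 were higher and 1 lower at 200 µM, with a median log2 ratio of 0.02, and with library totals 2 were higher and 6 lower. The share that passed was close to the 60.5% of all genes, so the number passing says nothing particular of the ERAD genes. Herpud1, a ubiquitin-like membrane protein that gathers the ERAD ligase, had the widest range of these. It was at 719, 937 and 681 CPM at 200 µM, against 175, 150 and 138 CPM in the controls. After 6 h at 100 µM it was at 67.5, 83.5 and 70.4 CPM, after 12 h at 105, 110 and 99.2 CPM and under the 24 h label at 683, 934 and 696 CPM. All libraries of 6 and 12 h were below the controls, with those of 12 h between the 6 h ones and the controls, and those of 200 µM and 24 h were above all. It was 5.05-fold higher at 200 µM (log2 ratio 2.34 ± 0.14, edgeR adjusted p = 5.29e-10), and its ratio was -1.07 ± 0.14, edgeR adjusted p = 6.60e-05 after 6 h and -0.56 ± 0.14, edgeR adjusted p = 0.0244 after 12 h. The value at 12 h no longer passed without control replicate 1 (-0.46), without replicate 1, 2 or 3 of its own group (-0.56, -0.59 and -0.52), without a filter (-0.56) or with the heart term (-0.74).

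Syvn1, the ubiquitin ligase Hrd1, was at 123, 119 and 114 CPM at 200 µM, against 72.1, 72.1 and 67.7 CPM in the controls. Syvn1 at 100 µM was at 67, 80.2 and 76.8 CPM after 6 h, 69, 73 and 72.1 CPM after 12 h and 108, 117 and 117 CPM under the 24 h label. The 200 µM and 24 h libraries stood clear of the rest (log2 ratio 0.75 ± 0.07, edgeR adjusted p = 2.46e-08 at 200 µM). Its adaptor Sel1l was lower in all 4 comparisons with control, while Syvn1 did not pass after 6 or 12 h at 100 µM. For Sel1l the log2 ratios were -0.25 ± 0.07, edgeR adjusted p = 0.00711 at 200 µM, and at 100 µM -0.41 ± 0.07, edgeR adjusted p = 8.43e-04 after 6 h, -0.33 ± 0.07, edgeR adjusted p = 0.013 after 12 h and -0.27 ± 0.07, edgeR adjusted p = 0.00444 under the 24 h label. With the heart term these were -0.12, -0.33, -0.20 and -0.14 and none passed. Without control replicate 1, the highest for Sel1l, the values of 200 µM (-0.16) and 12 h (-0.24) did not pass, nor did that of 12 h without its replicate 1 (-0.31) or 2 (-0.32).

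Derl1 and Derl3 encode derlins of the ERAD channel. Derl1 had a ratio of 0.25 ± 0.06, edgeR adjusted p = 0.00126 at 200 µM, and -0.12 with library totals. Derl3 had few counts, at 1.91, 1.33 and 1.75 CPM at 200 µM, against 2.71, 2.44 and 1.63 CPM in the controls. For 100 µM the levels were 2.31, 3.31 and 1.95 CPM after 6 h, 1.85, 2.22 and 2.86 CPM after 12 h and 1.01, 1.1 and 1.74 CPM under the 24 h label. Its groups overlapped at 200 µM (-0.44 ± 0.27, not passing; lower with library totals, -0.81, and with the matched 200 µM and 24 h libraries summed, -0.64) and also under the 24 h label, where the test passed (-0.83 ± 0.27, edgeR adjusted p = 0.0122) but not without control replicate 1 (-0.69) or replicate 1 (-0.69) or 2 (-0.73) of that label, nor with the heart term (-1.0). Of the genes that sort glycoproteins for removal, the lectin gene Os9 had a ratio of 0.20 ± 0.07, edgeR adjusted p = 0.0175 at 200 µM, which did not pass without control replicate 1 (0.18), control replicate 3 (0.17) or replicate 2 of 200 µM (0.15), nor with the heart term (0.09), and was -0.17 with library totals. Edem2 and Edem3, mannosidase-like proteins, had ratios of -0.19 ± 0.09 and -0.17 ± 0.15, and neither passed. Edem2 passed as lower without control replicate 1 (-0.24) or replicate 2 of 200 µM (-0.29), with the replicate block (-0.19), with matched libraries summed (-0.22) and with library totals (-0.56). Edem3 passed as lower with library totals (-0.54).

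All 3 translocon genes, whose proteins bring new chains into the ER, were higher at 200 µM, with library totals turning Ssr1 to -0.13. Sec61a1, the channel subunit, was at 794, 898 and 889 CPM at 200 µM, against 407, 409 and 434 CPM in the controls. At 100 µM it was at 440, 420 and 447 CPM after 6 h, 446, 420 and 421 CPM after 12 h and 886, 908 and 831 CPM under the 24 h label. The 200 µM and 24 h libraries lay far above the others, which overlapped among themselves (log2 ratio 1.05 ± 0.06, edgeR adjusted p = 7.40e-11 at 200 µM). Sec61b, a small subunit, was at 79.7, 89.8 and 86.3 CPM at 200 µM, against 53.3, 55.4 and 60.3 CPM in the controls. The 100 µM libraries were at 71.2, 58.1 and 65.9 CPM after 6 h, 64.9, 62.9 and 62.3 CPM after 12 h and 79.9, 90.8 and 78.7 CPM under the 24 h label. The groups of 200 µM and control did not overlap (log2 ratio 0.60 ± 0.08, edgeR adjusted p = 3.17e-06). After 6 h at 100 µM Sec61b did not pass in the main fit. It passed there as higher with the replicate block (0.22), with the heart term (0.34) and without replicate 2 of that group (0.29). Ssr1, a subunit of the translocon-associated complex, had a ratio of 0.24 ± 0.07, edgeR adjusted p = 0.00374.

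The other genes of the pathway, 73 tested in 7 lists, were 43 higher and 7 lower at 200 µM, with a median log2 ratio of 0.26. With library totals they were 21 higher and 31 lower. Of all genes 60.5% passed at 200 µM, 29.4% as higher and 31.1% as lower, and the counts of each list stand beside the same shares. Of the 5 J-domain co-chaperones that hand clients to BiP, 3 were higher: Dnajb9 (3.42 ± 0.17, edgeR adjusted p = 5.03e-11), Dnajc3 (1.65 ± 0.08, edgeR adjusted p = 7.00e-12), also an inhibitor of PERK, and Dnajb11 (0.71 ± 0.06, edgeR adjusted p = 5.08e-09). Of 10 other thiol oxidoreductases 2 were higher, Tmx4 (0.47 ± 0.10) and Pdia5 (0.27 ± 0.11; -0.11 with library totals), and Qsox2, a sulphydryl oxidase, was lower (-0.37 ± 0.07). Of 7 glycan-trimming genes Mogs, the first glucosidase, was lower (-1.60 ± 0.06, edgeR adjusted p = 2.42e-13), while Man1b1 (0.26 ± 0.07) and Prkcsh (0.25 ± 0.07) were higher, at -0.12 and -0.13 with library totals.

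Of 13 other ERAD genes 8 were higher, with Ubxn4 at 0.90 ± 0.07, edgeR adjusted p = 1.27e-09 and Nploc4, a cofactor of the extracting ATPase p97, at 0.85 ± 0.06, edgeR adjusted p = 4.82e-10, and Rnf139, an ER ubiquitin ligase, was lower at -1.66 ± 0.08, edgeR adjusted p = 3.23e-12. With library totals 6 of these 13 were higher and 6 lower. Of 19 other subunits of translocation, signal peptidase and oligosaccharyltransferase, 14 were higher and 1 lower, among them Srpra (0.48 ± 0.05), a receptor subunit for the signal recognition particle, Sec61g (0.73 ± 0.08) and Dad1 (0.54 ± 0.07), with 4 higher and 6 lower under library totals. Of 9 other regulators 7 were higher and 1 lower, with Traf2, an adaptor of IRE1, at 1.10 ± 0.09, edgeR adjusted p = 3.87e-09, the ER-bound factor gene Creb3 at 0.72 ± 0.08, and Nfe2l1, an ER-bound factor for proteasome genes, at -0.62 ± 0.06; with library totals 2 were higher and 2 lower.

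The arm that runs from PERK to ATF4 covered a wide range. At 200 µM 7 of 10 genes were higher and 2 lower, with ratios from -0.83 to 4.91 and a median of 2.59. With library totals 6 were higher and 3 lower. Among the higher were Atf3 (4.91 ± 0.15, edgeR adjusted p = 3.86e-14), a stress transcription factor, Sesn2 (3.46 ± 0.07, edgeR adjusted p = 2.05e-17), a brake on the growth kinase mTOR, and Chac1 (2.68 ± 0.09, edgeR adjusted p = 2.07e-14), which degrades glutathione. Asns went the other way, at 123, 138 and 125 CPM at 200 µM, against 276, 202 and 207 CPM in the controls. Atf4 itself was at 995, 1009 and 1125 CPM, against 947, 804 and 852 CPM. After 6 h at 100 µM 7 of these 10 were lower and none higher, with a median of -0.73, among them Asns (-1.94 ± 0.10, edgeR adjusted p = 1.16e-10), asparagine synthetase, Chac1 (-1.51 ± 0.09, edgeR adjusted p = 1.79e-09) and Sesn2 (-1.08 ± 0.08, edgeR adjusted p = 2.30e-08). After 12 h again 7 were lower and none higher, with a median of -0.47. At 12 h, set against 6 h at 100 µM, 5 were higher and none lower, where 0.974% of all genes passed. Over all 73 genes of the 7 lists, 7 were higher and 17 lower after 6 h at 100 µM, and 2 higher and 9 lower after 12 h. Under the 24 h label 43 were higher and 7 lower, all against control. Of all genes 9.10% were higher and 8.10% lower after 6 h, and 3.36% and 2.97% after 12 h. Under the 24 h label these shares were 29.7% and 31.3%. Outside the ER, 16 of 17 heat shock genes were higher at 200 µM and none lower, with a median of 2.32. This list is cytosolic apart from the mitochondrial chaperonin genes Hspd1 and Hspe1. Among the higher were Hsph1 (5.83 ± 0.12), Dnajb1 (3.12 ± 0.08) and Hspa1a (7.52 ± 0.16). With library totals 15 were higher and 1, Hsf1, lower. After 6 h at 100 µM 7 of the 17 were higher, among them Hspa8 (0.54 ± 0.06).

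**Figure D4:**
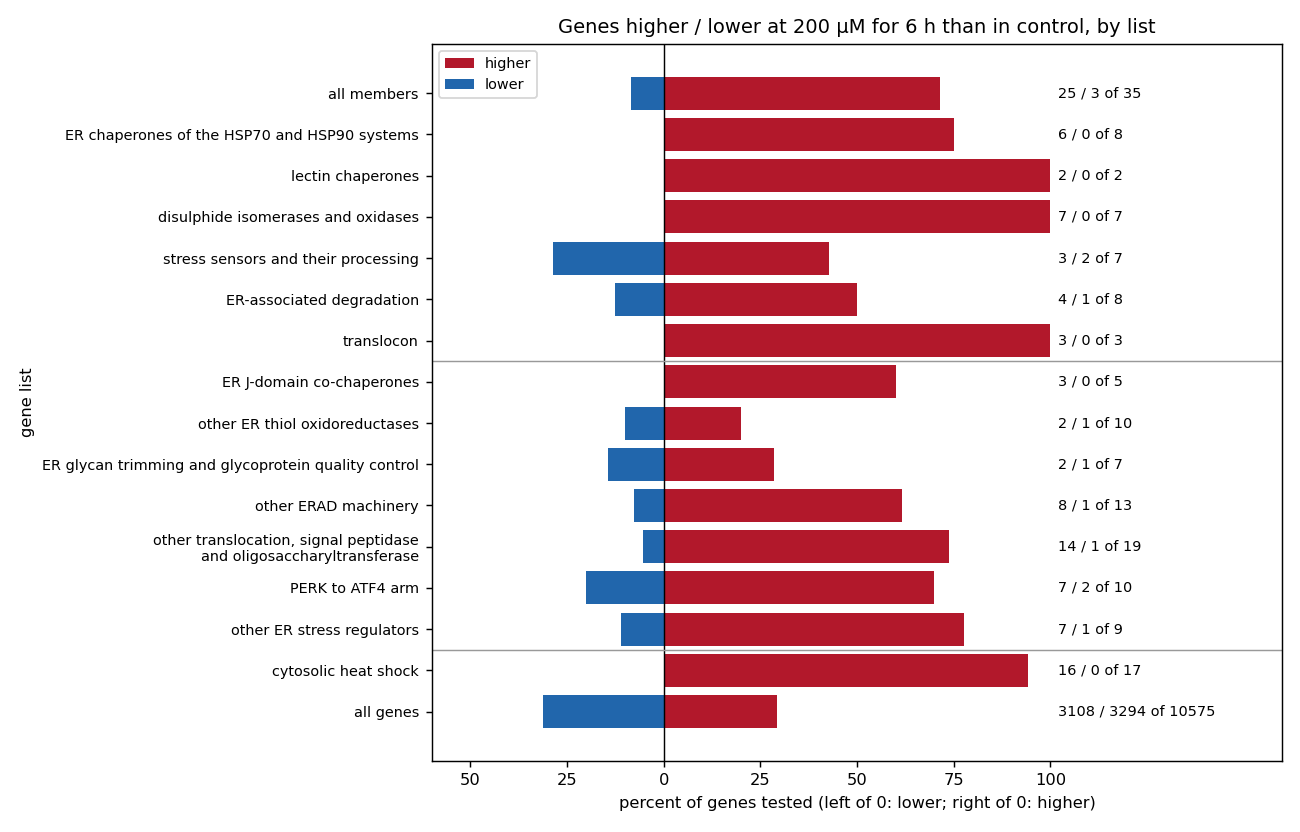
Share of the tested genes of each list that passed as higher (red, right of 0) or lower (blue, left of 0) at 200 µM for 6 h against control, in percent, with the counts at the right. The roles of the 35 genes stand above the first line, the other pathway lists between the lines, and heat shock and all genes below. The list drawn as cytosolic heat shock also holds the mitochondrial Hspd1 and Hspe1. The lectin chaperones, disulphide isomerases and oxidases and translocon are red throughout, and all genes show nearly equal bars (3108 and 3294 of 10575), where library totals as the scaling gave 15 higher and 12 lower of the 35 and 1264 and 6625 of all genes.

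Genes known to answer to zinc were higher in every treated group than in the controls. The metallothionein gene Mt1 was higher at 200 µM (3.70 ± 0.16), and at 100 µM after 6 h (4.98 ± 0.17), after 12 h (5.00 ± 0.17) and under the 24 h label (3.67 ± 0.16). At 200 µM for 6 h, set against 100 µM for 6 h, Mt1 was lower (-1.28 ± 0.14), as were Mt2A (-1.37 ± 0.11) and the zinc exporter gene Slc30a1 (-0.35 ± 0.08), while most of the ER genes were higher at 200 µM.

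At 100 µM for 6 h 7 of the 35 ER genes passed, a share close to the 17.2% of all genes, so the count says nothing particular of these genes. The 6 lower genes were Herpud1 (-1.07 ± 0.14), Atf6 (-0.74 ± 0.10), Ern1 (-0.50 ± 0.12), Sel1l (-0.41 ± 0.07), Sil1 (-0.36 ± 0.08, edgeR adjusted p = 0.00596) and Mbtps1 (-0.20 ± 0.06), and the 1 higher gene was Txndc11. The median of the 35 was 0.06, against 0.00 for all genes, and libraries did not overlap for 17 of the 35, against 35.5% of all genes. Sil1 no longer passed with the heart term (-0.36). After 12 h Herpud1, Atf6, Ern1 and Sel1l were again the lower genes, and Creld2 (0.34 ± 0.08, edgeR adjusted p = 0.0114) and Manf (0.23 ± 0.07, edgeR adjusted p = 0.0424) were higher. The median was 0.02, against 0.00 for all genes, and 17 of the 35 did not overlap, against 27.4% of all genes. These comparisons share the controls, and the count after 12 h rested on them: without control replicate 1 it was 1 of 35, and with the heart term, which all 3 controls carry, 0 of 35. Creld2 did not pass without control replicate 1 (0.32), and Manf did not pass without any 1 of the 6 libraries (0.21 to 0.26).

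Between 12 h and 6 h at 100 µM, 0 of the 35 ER genes passed in edgeR, where 0.974% of all genes did, with 3 of the 35 at an unadjusted p under 0.05. Herpud1 was closest, higher in every 12 h library than in any 6 h library, with log2 ratio 0.51 ± 0.14, edgeR adjusted p = 0.118. It passed in DESeq2, in a fit of these 6 libraries alone and with the replicate number as a block, each with a log2 ratio of 0.51. The standard errors of these ratios ran from 0.06 to 0.26 over the 35 genes, and a ratio several times its error, that of Herpud1, did not pass here.

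Between 200 µM and 100 µM at 6 h, 27 of the 35 genes were higher and 3 lower, with a median of 0.51, where 53.6% of all genes passed, 26.5% as higher and 27.1% as lower. Libraries did not overlap for 33 of the 35, against 58.9% of all genes. With library totals the median of all genes was -0.35, and 16 of the 35 were higher and 9 lower. Herpud1 (log2 ratio 3.40 ± 0.15, edgeR adjusted p = 1.40e-11) and Hspa5 (log2 ratio 3.22 ± 0.07, edgeR adjusted p = 1.64e-16) were furthest apart between the doses, ahead of Ern1 (log2 ratio 2.31 ± 0.12, edgeR adjusted p = 2.32e-11). Atf6, which did not pass at 200 µM against control, was higher than at 100 µM (log2 ratio 0.58 ± 0.10, edgeR adjusted p = 8.64e-05; 0.24 with library totals, which did not pass), and Mbtps2 was lower (log2 ratio -0.93 ± 0.15, edgeR adjusted p = 2.68e-05). Edem2 (-0.37 ± 0.09, edgeR adjusted p = 0.00256) and Edem3 (-0.42 ± 0.15, edgeR adjusted p = 0.0296) were the other lower genes. The call of Edem3 was lost without replicate 1 (-0.35) or 3 (-0.43) of 100 µM or without replicate 2 (-0.27) or 3 (-0.45) of 200 µM. The same held for the higher calls of Sil1 (0.19 to 0.25), Os9 (0.12 to 0.18) and Ssr1 (0.13 to 0.19), each without 4 single libraries in turn, and with library totals these 3 were at -0.09, -0.17 and -0.16. Hspa13 passed as higher without replicate 2 of 200 µM (0.29), and Mbtps1 (-0.14 ± 0.06) as lower without replicate 1 of 100 µM (-0.18), with the heart term (-0.18), with the replicate block (-0.14) and with library totals (-0.48). With library totals Wfs1 (-0.42) and Derl3 (-0.91) also passed as lower, as did Derl3 with matched libraries summed (-0.76), where Ssr1 (0.17) did not pass.

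Between the 24 h label and 12 h at 100 µM, 26 of the 35 genes were higher and 4 lower, with a median of 0.50, where 54.5% of all genes passed, 26.9% as higher and 27.6% as lower. Libraries did not overlap for 31 of the 35, against 60.7% of all genes. With library totals the median of all genes was -0.34, and 16 were higher and 8 lower. Hspa5 (log2 ratio 3.22 ± 0.07, edgeR adjusted p = 9.84e-17), Herpud1 (log2 ratio 2.88 ± 0.14, edgeR adjusted p = 7.39e-11) and Ern1 (log2 ratio 2.37 ± 0.12, edgeR adjusted p = 1.79e-11) led again. The lower genes were Derl3 (-0.86 ± 0.29, edgeR adjusted p = 0.0191), Mbtps2 (-0.78 ± 0.14, edgeR adjusted p = 1.60e-04), Edem2 (-0.38 ± 0.09, edgeR adjusted p = 0.00207) and Mbtps1 (-0.19 ± 0.06, edgeR adjusted p = 0.0113). Derl3 did not pass without replicate 3 of 12 h (-0.68) or replicate 1 (-0.72) or 2 (-0.76) of the 24 h label, Mbtps1 without replicate 2 of 12 h (-0.16), and the higher gene Ssr1 without replicate 2 of 12 h (0.16). Sil1 (0.25) and Edem3 (-0.40) passed without replicate 3 of the 24 h label.

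Under the 24 h label against control the values followed those of 200 µM. Hspa5 had log2 ratio 3.23 ± 0.07, edgeR adjusted p = 5.67e-17, Herpud1 log2 ratio 2.32 ± 0.14, edgeR adjusted p = 5.36e-10, Ern1 log2 ratio 1.83 ± 0.11, edgeR adjusted p = 1.61e-10 and Sdf2l1 log2 ratio 1.69 ± 0.13, edgeR adjusted p = 5.90e-09. The 5 lower genes were Derl3, Mbtps2 (-0.70 ± 0.14), Mbtps1 (-0.33 ± 0.06), Sel1l and Edem2 (-0.24 ± 0.09, edgeR adjusted p = 0.0325). Edem2, whose libraries overlapped the controls, did not pass without control replicate 2 (-0.20) or 3 (-0.21) or replicate 3 of the label (-0.15), nor in a fit of the 6 libraries (-0.23) or with the heart term (-0.34). With that term 22 were higher and 2 lower under this label, and at 200 µM 23 were higher and 2 lower.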

How the data were processed

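The authors deposited raw counts per gene identifier for 15 libraries; per the submitters' processing notes bcl2fastq, CASAVA 1.8, TopHat, DESeq and the build rn4 were used, and for the counter, its annotation and its use of strand the sources used here give nothing. Identifiers were matched to RefSeq symbols (16671 of 16832; 2758 were at 0 in every library). Counts were tested with edgeR 4.0.16 (R 4.3.3; filterByExpr, TMM, robust quasi-likelihood F test, all 15 libraries counted as independent, group as the only term), with Benjamini-Hochberg adjustment over the 10575 genes that passed the filter and a threshold of 0.05. Ratios are log2 ± SE. The filter removed 6257 identifiers. A count of 0 allows 0.0853 to 0.290 CPM, 3 counts of each total, for counting error only. The code was tested on simulated data in which few of the genes were changed. That test does not bear on the choice of scaling.

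The ER genes were listed by function, and they and all other lists were chosen with earlier results of these data known. By the rule for named genes, levels in every library are given for ER genes that passed in a comparison with a log2 ratio of at least 0.5 in size, for the sensors and for the main chaperones, the others by values and ranges, and from other lists up to 3 genes with the smallest p. A planned comparison of protein ends was not made for want of protein sequences. The alternatives were DESeq2 1.42.0, limma 3.58.1 voom, other scalings and filters, thinned counts, the 6 libraries compared, matched 24 h and 200 µM libraries summed, either of these labels left out, a heart transcript term, the replicate block and leaving out each library. Only between the 24 h label and control did same-numbered libraries deviate together in all 3 pairs (r = 0.141, 0.304 and 0.123 over genes). From this alone the numbers were read as pairs there. No label gives a pairing, and the main fit does not use one. The close matches between the 24 h and 200 µM libraries cross the numbers. Replicates 1, 2 and 3 of the 24 h label match replicates 3, 2 and 1 of 200 µM. Some genes' values are not reported here.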

Additional observations from a re-analysis of the deposited data

Results flagged for a closer look

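In the main fit Ern1 and Herpud1 moved in opposite directions at the doses of 6 h and at the times of 100 µM, and the difference itself passed in each case. Ern1 was higher than control at 200 µM and lower at 100 µM for 6 h, and the difference between the doses was 2.31 on the log2 scale. It was also higher under the 24 h label and lower after 12 h, with a difference of 2.37. For Herpud1 these differences were 3.40 between the doses and 2.88 between the 24 h label and 12 h. A passing difference does not show that either gene was below control. The lower call of Ern1 after 6 h was lost without replicate 1 of that group or with the heart term. That after 12 h was lost without control replicate 1 or with that term. The lower call of Herpud1 after 12 h was lost without control replicate 1, without any 1 library of its own group, without a filter or with the heart term. The values of the 24 h label and of 200 µM come from libraries that lie close in pairs, so the comparisons by dose and by time do not stand as separate support.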

How the results depend on the processing

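Of the values of single ER genes under other settings, 2925 kept their side of the threshold. These include any that changed sign with neither value passing. A further 41 passed newly and 55 no longer passed. Another 24 turned round with a passing value in the main or the other fit, all 24 with library totals as the scaling. These 24 were, at 200 µM against control, Derl1 -0.12, Ero1a -0.13, Os9 -0.17, Pdia4 -0.04, Ssr1 -0.13 and Txndc5 -0.06. Under the 24 h label against control they were Derl1 -0.14, Ero1a -0.09, Os9 -0.14, Pdia4 -0.03, Ssr1 -0.16 and Txndc5 -0.07. At 200 µM against 100 µM they were Derl1 -0.04, Ero1a -0.07, Os9 -0.17, Sel1l -0.19, Sil1 -0.09, Ssr1 -0.16 and Txndc5 -0.08, and under the 24 h label against 12 h Derl1 -0.01, Hspa13 -0.31, Os9 -0.10, Sel1l -0.27 and Ssr1 -0.13. With a term that marks the 4 libraries with heart transcripts, chosen from earlier results of these data, the genes called over the whole table were 3898 at 200 µM, 3880 under the 24 h label, 933 after 6 h and 50 after 12 h against control, and 51 between 12 h and 6 h, and the ER genes called after 12 h were 0. All 3 controls carry that term, so such a fit separates it from the groups through 1 library, replicate 1 of 6 h at 100 µM. Between 12 h and 6 h 1 ER gene, Herpud1, passed in DESeq2, in a fit of the 6 libraries and with the replicate number as a block, where 200, 223 and 223 of all genes did. The replicate block gave 1165 calls over all genes after 12 h against control. It changed no call of an ER gene between the 24 h label and control, where the numbers were read as pairs from the correlations alone. Elsewhere not every pair was over 0.1 in correlation, so the samples share only a number. There the block gave 25 higher and 4 lower at 200 µM, 3 and 6 after 6 h and 4 and 5 after 12 h against control, 28 and 4 between the doses and 26 and 5 between the 24 h label and 12 h. Summing the matched 24 h and 200 µM libraries left 240 values of ER genes on their side of the threshold, with 4 newly passing, Derl3 in 2 comparisons, Edem2 and Sdf2l1, and 1, Ssr1 between the doses, no longer passing. Leaving out each library in turn gave 27 to 28 ER genes at 200 µM, 29 to 29 under the 24 h label, 5 to 8 after 6 h and 1 to 8 after 12 h against control, 26 to 29 between the doses, 0 to 0 between 12 h and 6 h and 28 to 32 between the 24 h label and 12 h. Over all genes these were, in the same order, 5778 to 6043, 5909 to 6106, 1026 to 1776, 271 to 639, 5033 to 5391, 50 to 93 and 5056 to 5440. Of the single values without a library, 1409 kept their call, 11 passed newly and 50 no longer passed. Low counts limit Derl3 and Ero1b most.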
